A study of Arabidopsis thaliana with 12 samples.

Results

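The 34 genes described here encode proteins of the nuclear RNA exosome (13 genes) and of pre-mRNA 3′ end cleavage and polyadenylation (21 genes). They were chosen by identifier for their place in these pathways, from 37184 annotated genes. Each was followed through 3 readouts in Col-0 and xrn3-8 plants of Arabidopsis thaliana: RNA-seq counts of the gene, RNA-seq counts of a flanking window named for the gene, and small RNA counts over the gene. A window row was present for 32 of the 34, out of 33985 windows in all. The reference used for names gives a symbol or synonym to 25 of the genes. RRP6L1, RRP6L2 and RRP6L3 carry the names under which the set was drawn up, and 6 genes appear by identifier only.

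The series asked how defective transcription termination by XRN3 affects protein-coding genes. Wild-type Col-0 and the xrn3-8 mutant, an allele of the 5′-to-3′ exoribonuclease gene XRN3, were compared with 3 biological replicates per genotype in each assay. For RNA-seq, seedlings were 21 days old and grown on soil, and total RNA depleted of ribosomal RNA was sequenced from stranded libraries. For small RNA, seedlings were 14 days old and grown on MS plates, so that age and medium differ between the assays and their libraries were not paired. No treatment is given for either genotype, and the number of plants per library is not stated in the labels or protocols.

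When RNA polymerase II reaches the end of a gene, a cleavage complex cuts the nascent transcript and a poly(A) polymerase adds the tail. CPSF recognises the poly(A) signal and cuts, CstF binds downstream, and further factors link the complex to the polymerase. The RNA left on the polymerase is a substrate of nuclear 5′-to-3′ exoribonucleases such as XRN3, whereas the nuclear exosome degrades RNA from the 3′ end with the help of RNA helicases. In Arabidopsis several of these factors, among them FCA, FPA and FY, are best known for setting flowering time through the choice of poly(A) site in transcripts at the FLC locus.

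Gene counts lay between 61604670 and 79845518 per RNA-seq library and between 5873199 and 7122245 per small RNA library. XRN3 (AT1G75660) checked the labels: it fell from 48.8 ± 0.211 to 20.5 ± 1.33 CPM (counts per 1e+06 of scaled library size, mean ± SD, n = 3; log2 fold change -1.25, SE 0.08, adjusted p = 2.75e-06). Small RNA over XRN3 went the other way, with 276, 790 and 350 counts in Col-0 against 538823, 573638 and 706264 in xrn3-8 (log2 fold change 10.28, SE 0.77, adjusted p = 0.000362). No pair of replicate libraries differed by less than sampling noise. The small RNA library of xrn3-8 replicate 3 stood apart from the other xrn3-8 small RNA libraries (chi-square per degree of freedom of 137 and 116, against 4.51 to 15.8 for every other pair of small RNA replicates). Among marker genes of cell types, the summed level of 4 dividing-cell markers lay between 21.4 and 24.7 CPM in Col-0 and between 40.3 and 44.8 CPM in xrn3-8, with 3 of the 4 called higher. Of the 4 leaf markers RBCS1A (log2 fold change -0.39, adjusted p = 0.0275) and LHCB2.1 (-1.15, adjusted p = 2.7e-05) fell, with every xrn3-8 library below every Col-0 library. Their sum over all 4 overlapped between the groups (10500 to 12108 CPM in Col-0 against 8004 to 10859 CPM in xrn3-8), as did root markers (84.4 to 134.9 and 60.9 to 111.6 CPM). Nearly all of the root sum came from PYK10, and the other 3 root markers were under 0.2 CPM in every library. Flower markers summed to 0.653 to 1.10 CPM in Col-0 against 1.23 to 2.94 CPM in xrn3-8, with PI as the 1 called gene (log2 fold change 3.60). AP3, AG and SEP3, each under 0.4 CPM, had lower means in xrn3-8 with overlapping groups. Their means were 0.227, 0.200 and 0.254 CPM in Col-0 against 0.0706, 0.0395 and 0.0998 CPM in xrn3-8. In whole seedlings fewer cells of a type and less RNA per cell cannot be told apart, and the part of these markers in the results below was not tested.

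RNA of 8 of the 34 genes was higher in xrn3-8, and none passed the test as lower. The risen genes were RRP4, RRP6L2 and HEN2 of the exosome and FY, CPSF160, ESP4, FPA and PAPS1 of 3′ end processing. All rises were small, with log2 fold changes from 0.20 to 0.51. The filter on low counts was passed by 33 of the 34. Of these, 20 had a positive and 13 a negative log2 fold change, and 10 had an unadjusted p under 0.05. Over all 20653 genes tested, 15.9% were called higher and 17.4% lower. The median log2 fold change was 0.12 over the 33 genes and 0.00 over all genes tested. It was 0.19 for the 20 tested 3′ end genes and -0.09 for the 13 exosome genes. With total counts in place of the scaling factors these medians were 0.34 and 0.06, against 0.16 over all genes tested. In 15 of the 33 genes every xrn3-8 library lay above every Col-0 library, and in 1 gene below. Over all genes tested these patterns were found in 24.1% and 24%. The 15 comprised 12 of the 3′ end genes and 3 of the exosome genes. The scaling factors themselves differed between genotypes, from 0.929 to 0.958 in Col-0 and from 1.01 to 1.11 in xrn3-8. With total counts, 4 exosome genes and 11 of the 3′ end genes were higher. No exosome gene passed without Col-0 replicate 1 or 2 or xrn3-8 replicate 1 or 2, and 1 passed without Col-0 replicate 3. Of the 3′ end genes 3 passed without Col-0 replicate 1, and 2 without any of Col-0 replicates 2 and 3 and xrn3-8 replicates 1 and 3.

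**Figure D1:**
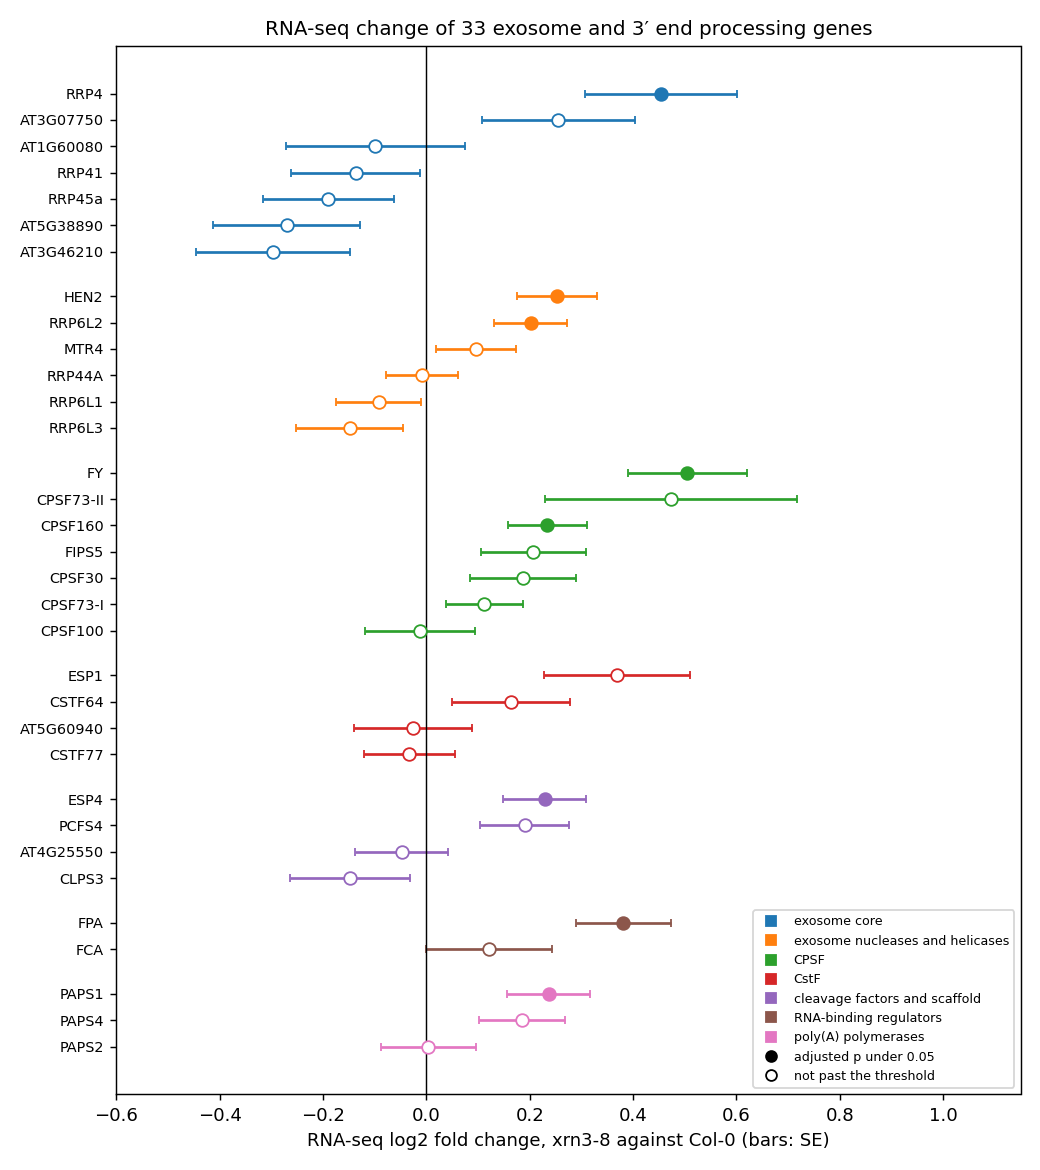
RNA-seq log2 fold change of xrn3-8 against Col-0 for the 33 tested genes, grouped by role, with bars of 1 standard error; filled circles passed an adjusted p of 0.05. The 8 filled circles lie between 0.20 and 0.51, and no filled circle lies below 0.

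The exosome core is a ring of subunits through which RNA is threaded, and 1 of the 7 genes grouped with it changed. RRP4 encodes a cap subunit of the ring with RNA-binding domains. It had 4.26, 3.83 and 5.23 CPM in Col-0 against 6.61, 6.21 and 5.43 CPM in xrn3-8. The groups did not overlap, although the highest Col-0 library came close to the lowest xrn3-8 library. The rise from 4.44 ± 0.722 to 6.08 ± 0.598 CPM gave a log2 fold change of 0.45 (SE 0.15 and adjusted p = 0.0358). The adjusted p was 0.102 without Col-0 replicate 1, 0.117 without Col-0 replicate 2, 0.0935 without xrn3-8 replicate 1 and 0.0681 without xrn3-8 replicate 2.

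The other 6 genes of this group did not pass. AT3G07750 had the highest log2 fold change among them, 0.26 (SE 0.15, adjusted p = 0.212). The lowest was that of AT3G46210, at -0.30 (SE 0.15, adjusted p = 0.153), with 7.97, 6.64 and 6.87 CPM in Col-0 against 4.62, 6.68 and 6.15 CPM in xrn3-8. AT5G38890 was the 1 gene of the set in which every xrn3-8 library lay below every Col-0 library. It had 4.27, 3.48 and 4.09 CPM in Col-0 against 3.33, 3.15 and 3.34 CPM in xrn3-8 (log2 fold change -0.27, SE 0.14, adjusted p = 0.171). RRP41 and RRP45a, which encode ring subunits of the RNase PH type, had log2 fold changes of -0.14 (SE 0.13) and -0.19 (SE 0.13). AT1G60080 had -0.10 (SE 0.17). An adjusted p that misses the threshold does not show that a level was the same in both genotypes.

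Of the 6 nuclease and helicase genes, HEN2 and RRP6L2 rose. HEN2 encodes a nucleoplasmic RNA helicase that delivers transcripts to the exosome. It had 19.2, 18.7 and 18.2 CPM in Col-0 against 23.0, 22.7 and 21.2 CPM in xrn3-8. Each group was tight and the groups stood clear of each other, with a log2 fold change of 0.25 (SE 0.08 and adjusted p = 0.0287). With 1 library left out, its adjusted p passed only without xrn3-8 replicate 3 (0.0349). Without xrn3-8 replicate 1 or 2 or any Col-0 replicate it lay between 0.0515 and 0.106. MTR4, the related helicase of the nucleolus, had a log2 fold change of 0.10 (SE 0.08 and adjusted p = 0.373), with 30.7, 31.7 and 31.5 CPM in Col-0 against 31.4, 35.9 and 33.1 CPM in xrn3-8.

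RRP6L2 is 1 of 3 Arabidopsis relatives of the exosome-associated 3′-to-5′ exonuclease RRP6. It had 27.7, 29.0 and 28.9 CPM in Col-0 against 33.1, 32.7 and 32.5 CPM in xrn3-8. The xrn3-8 libraries were close together and all above Col-0, but the step was small, 0.20 on the log2 scale (SE 0.07 and adjusted p = 0.0483). Its call was lost in all 6 fits that left out 1 library, with adjusted p from 0.0617 to 0.164. The relatives RRP6L1 and RRP6L3 had log2 fold changes of -0.09 (SE 0.08) and -0.15 (SE 0.10, adjusted p = 0.300). RRP44A, the catalytic exonuclease of the complex, had the closest group means of the exosome genes, 31.5 ± 0.627 and 31.3 ± 0.518 CPM (log2 fold change -0.01, SE 0.07, adjusted p = 0.935).

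In CPSF, FY and CPSF160 rose among 7 genes. FY encodes a WD-repeat subunit that binds FCA. It had 4.88, 4.91 and 5.69 CPM in Col-0 against 7.51, 7.52 and 6.94 CPM in xrn3-8. The groups were well apart, and the rise from 5.16 ± 0.459 to 7.32 ± 0.331 CPM was the largest fitted change of the 33 genes (log2 fold change 0.51, SE 0.11, adjusted p = 0.00675). Over the whole series, 2976 of the 20653 genes tested had a larger positive change. The call was kept in all 6 fits that left out 1 library, with log2 fold changes from 0.46 to 0.58 and adjusted p from 0.0101 to 0.0308.

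CPSF160, the large scaffold subunit of CPSF, had 24.5, 24.0 and 26.1 CPM in Col-0 against 30.6, 28.7 and 28.4 CPM in xrn3-8. The groups did not overlap, with a log2 fold change of 0.23 (SE 0.08 and adjusted p = 0.0379). Its call held only without xrn3-8 replicate 2 (adjusted p = 0.0434), and without each of the 5 other libraries the adjusted p lay between 0.0559 and 0.116. The other 5 CPSF genes did not pass. Highest of these was CPSF73-II, a relative of the endonuclease subunit, at 0.47 (SE 0.24, adjusted p = 0.164). It had the fewest reads of the 33 genes, with 0.777 to 1.17 CPM in Col-0 against 1.26 to 1.51 CPM in xrn3-8. CPSF100, the partner of the endonuclease, was lowest at -0.01 (SE 0.11, adjusted p = 0.941). The endonuclease gene CPSF73-I had 0.11 (SE 0.07), the RNA-binding subunit gene CPSF30 0.19 (SE 0.10) and FIPS5, a homologue of yeast Fip1, 0.21 (SE 0.10, adjusted p = 0.146). In CPSF73-I, CPSF73-II, CPSF30 and FIPS5 every xrn3-8 library lay above every Col-0 library.

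No CstF gene passed. ESP1, a CstF64-like gene, came closest at 0.37 (SE 0.14, adjusted p = 0.0688), with 4.75, 4.35 and 4.86 CPM in Col-0 against 7.12, 5.23 and 5.71 CPM in xrn3-8. The groups did not overlap and xrn3-8 replicate 1 was highest. Without xrn3-8 replicate 2 its log2 fold change was 0.47 and its adjusted p 0.0329. CSTF77, the scaffold of CstF, was lowest at -0.03 (SE 0.09, adjusted p = 0.804), and CSTF64, which binds RNA downstream of the cleavage site, had 0.16 (SE 0.11). AT5G60940 had -0.03 (SE 0.11).

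Of the 4 genes grouped as cleavage factors and scaffold, ESP4 rose. ESP4 is the Arabidopsis homologue of symplekin, a scaffold of the cleavage complex. It had 30.6, 27.2 and 28.0 CPM in Col-0 against 35.4, 32.5 and 32.7 CPM in xrn3-8, without overlap (log2 fold change 0.23, SE 0.08, adjusted p = 0.0484). The call was lost without either Col-0 replicate 2 or 3 and without either xrn3-8 replicate 1 or 3, with adjusted p up to 0.146. PCFS4, a homologue of the yeast termination factor Pcf11 that acts in flowering time, had 0.19 (SE 0.09, adjusted p = 0.117). CLPS3, a homologue of yeast Clp1, had the lowest value at -0.15 (SE 0.12, adjusted p = 0.356). AT4G25550 had -0.05 (SE 0.09).

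FPA, an RNA-binding protein that promotes use of upstream poly(A) sites, including in its own pre-mRNA, was called higher. It had 30.6, 33.4 and 30.9 CPM in Col-0 against 46.6, 39.2 and 38.0 CPM in xrn3-8. All xrn3-8 libraries lay above Col-0, and xrn3-8 replicate 1 stood above the other xrn3-8 libraries. The level went from 31.6 ± 1.51 to 41.2 ± 4.66 CPM (log2 fold change 0.38, SE 0.09, adjusted p = 0.00936). The call was kept in all 6 fits that left out 1 library, from 0.28 to 0.45 with adjusted p up to 0.0406. FCA, the RNA-binding partner of FY, had 12.6, 15.7 and 12.4 CPM in Col-0 against 16.9, 14.2 and 13.2 CPM in xrn3-8, with overlap (0.12, SE 0.12, adjusted p = 0.482).

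Among the poly(A) polymerase genes, PAPS1 rose. It had 18.9, 21.0 and 21.3 CPM in Col-0 against 23.9, 23.7 and 24.5 CPM in xrn3-8. The xrn3-8 libraries lay close together above Col-0, with a log2 fold change of 0.24 (SE 0.08 and adjusted p = 0.0424). The call was lost in all 6 fits that left out 1 library, with adjusted p from 0.0505 to 0.174. PAPS4 had 33.1, 33.6 and 31.3 CPM in Col-0 against 40.6, 36.1 and 34.7 CPM in xrn3-8, again without overlap but short of the threshold (0.18, SE 0.08, adjusted p = 0.112). PAPS2 had 0.00 (SE 0.09, adjusted p = 0.980). PAPS3, the remaining family member, had 1 read in Col-0 replicate 2 and 0 in the other 5 libraries, and was the 1 gene of the set that could not be tested.

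**Figure D2:**
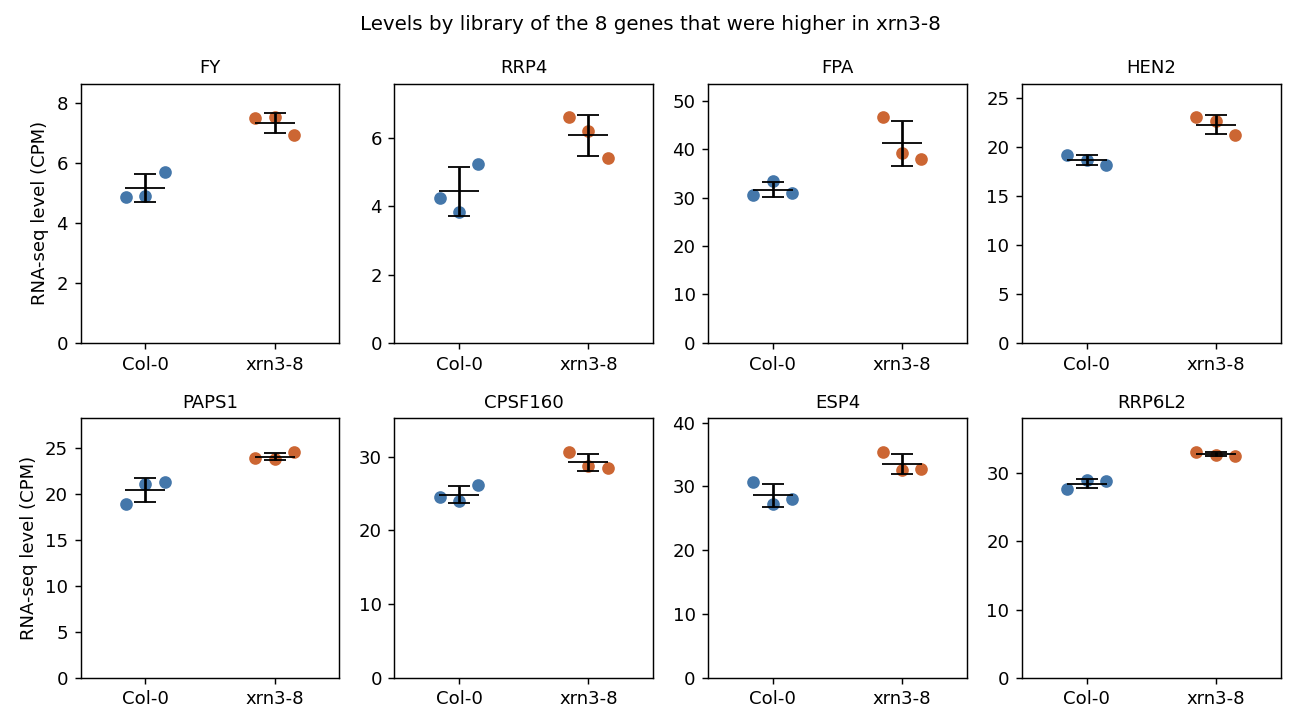
RNA-seq level in CPM of the 8 genes called higher in xrn3-8, with 1 point per library and the mean ± SD of 3 libraries per genotype. In every panel the 3 xrn3-8 points lie above the 3 Col-0 points, and the narrowest gap is that of RRP4, between 5.23 CPM in Col-0 against 5.43 CPM in xrn3-8.

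Ratios of read counts between related genes within a library do not depend on how libraries are scaled. Pairs of a called gene and an uncalled gene were taken after their values had been seen, so the ratios are descriptions, and they are not per length. The ratio of RRP4 to RRP41 counts was 0.648, 0.713 and 0.785 in Col-0 against 1.11, 1.10 and 1.02 in xrn3-8. That of FY to CPSF73-I was 0.238, 0.238 and 0.272 in Col-0 against 0.333, 0.328 and 0.322 in xrn3-8. In both pairs the order of the groups was complete, and the mean ratio was 1.51-fold and 1.31-fold higher in xrn3-8. The RRP6L2 to RRP6L1 ratio was 1.68, 1.85 and 1.92 in Col-0 against 2.33, 2.13 and 2.22 in xrn3-8. For FPA to FCA it was 2.43, 2.13 and 2.50 against 2.76, 2.76 and 2.87. HEN2 to MTR4 had 0.626, 0.589 and 0.578 against 0.734, 0.632 and 0.640, where the groups nearly met. These 3 pairs were also completely ordered, with mean ratios 1.23-fold, 1.19-fold and 1.12-fold higher. By contrast, the summed counts of all 3′ end genes over those of all exosome genes overlapped between the groups (1.92 ± 0.0750 in Col-0 against 2.07 ± 0.157 in xrn3-8).

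Further genes of the same pathways were followed as a list of 22, of which 21 were tested. Of these, 1 was higher and 2 were lower, and the median log2 fold change was 0.13. AT5G43620 rose, with 3.22, 4.81 and 6.72 CPM in Col-0 against 9.79, 6.89 and 10.7 CPM in xrn3-8 (0.89, SE 0.24, adjusted p = 0.0157), where the highest Col-0 library nearly reached the lowest xrn3-8 library. HESO1, which adds uridines to small RNAs and other RNA 3′ ends, fell, with 10.8, 12.7 and 13.6 CPM in Col-0 against 9.68, 9.41 and 9.14 CPM in xrn3-8 (-0.39, SE 0.10, adjusted p = 0.0145). AT5G59460 fell as well, with 8.93, 10.9 and 10.5 CPM in Col-0 against 7.74, 7.91 and 8.59 CPM in xrn3-8 (-0.33, SE 0.11, adjusted p = 0.0388).

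The windows that flank these genes held few reads in Col-0, and those of FPA and RRP41 gained reads in xrn3-8. Of the 32 windows, 7 held no read in any library and 6 had enough reads to be tested. Of these 6, 2 were called higher and 0 lower by edgeR (2 had an unadjusted p under 0.05). Over all 2925 windows tested, 49.3% were higher and 1.61% lower, with a median log2 fold change of 1.05. The median over the 6 was 0.71. The windows of FPA and RRP41 had under 10 reads in each Col-0 library and passed the filter through xrn3-8 alone, so the count over the 6 does not stand for the set. On which side of its gene a window sits is not stated in the labels or protocols.

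The FPA window held 1, 0 and 1 reads in Col-0 against 11, 15 and 19 in xrn3-8. Nearly all of its reads thus lay in xrn3-8, and every mutant library was far above every wild-type library. The ratio of scaled counts over the groups was 19.1 (exact 95% interval 4.98 to 162, counting error only), and the fitted log2 fold change was 4.03 (SE 0.69, adjusted p = 8.95e-05). Its Col-0 reads alone would not have passed the filter. Without a filter, over 19029 windows, it had 4.02 (adjusted p = 0.000395). Larger positive values were found for 400 of the 2925 windows tested. The window gained far more than the gene: as a share of FPA gene reads it went from 0.0345% ± 0.0300 to 0.486% ± 0.132. The window-to-gene ratio rose by 3.66 on the log2 scale (SE 0.72 and adjusted p = 0.000573). Both calls were kept in all 6 fits that left out 1 library, with window log2 fold changes from 3.50 to 4.41 and ratios from 3.08 to 4.07. In the reference FPA overlaps 2 genes, ETFQO (AT2G43400) and the long non-coding RNA gene AT2G09470. The window of ETFQO held 1 read in Col-0 against 3 in xrn3-8, and that of AT2G09470 held 0 in every library.

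RRP41 combined a raised window with a gene level that did not pass. Its window held 7, 5 and 5 reads in Col-0 against 19, 16 and 15 in xrn3-8, with a wide gap between the groups. The ratio of scaled counts was 2.49 and the log2 fold change 1.32 (SE 0.51, adjusted p = 0.0366), near the median of all windows. As a share of RRP41 gene reads the window went from 1.16% ± 0.129 to 3.18% ± 0.575, and the window-to-gene ratio rose by 1.42 (SE 0.43, adjusted p = 0.0115). The window call was lost in all 6 fits that left out 1 library (adjusted p from 0.0576 to 0.144) and without a filter (adjusted p = 0.125). It was also lost with windows scaled on themselves (0.38, adjusted p = 0.587). DESeq2, which likewise scaled on the windows, lost it too (0.51, adjusted p = 0.590). The ratio call was lost only without Col-0 replicate 3 (adjusted p = 0.0531). The gene AT3G61610 overlaps RRP41 in the reference, and RRP41 held 2431 reads over all libraries in the table counted with assembled loci but 3041 in the table counted with windows.

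The other 4 tested windows did not pass, and their groups overlapped. The FCA window, the fullest of the set in both groups, held 19, 32 and 28 reads in Col-0 against 39, 28 and 43 in xrn3-8 (log2 fold change 0.25, SE 0.35, adjusted p = 0.581). That of RRP44A held 19, 32 and 16 in Col-0 against 23, 28 and 18 in xrn3-8 (-0.18, SE 0.40, adjusted p = 0.741). For CSTF64 the counts were 14, 3 and 6 in Col-0 against 15, 9 and 26 in xrn3-8 (0.88, SE 0.59, adjusted p = 0.229). PCFS4 had 6, 18 and 10 in Col-0 against 12, 8 and 39 in xrn3-8 (0.55, SE 0.58, adjusted p = 0.464), so that xrn3-8 replicate 3 alone stood out. Windows of genes whose own RNA was called higher therefore included a strongly raised one (FPA) and 3 without any read (RRP4, HEN2 and ESP4). Those of RRP6L2, FY, CPSF160 and PAPS1 were too sparse for a test. They held 0, 0, 0 and 2 reads over the Col-0 group against 11, 10, 5 and 14 over the xrn3-8 group. Of the 6 window-to-gene ratios, 2 were called higher and 0 lower by edgeR. Over all 2752 pairs tested, 51.1% were higher and 0.4% lower. The median was 1.16 over all pairs, against 0.48 for the 6.

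In 10 of the 25 windows with any read, Col-0 held 0 and xrn3-8 held some, and the reverse was not seen. Over all windows with at least 1 read these patterns made up 32.7% and 5.03%, so that the count is near the background. FIPS5 had 4, 6 and 7 reads in xrn3-8, at least 4.80-fold higher against a floor of 3 counts over the Col-0 group. RRP6L2 had 1, 2 and 8 (at least 3.11-fold) and FY had 1, 4 and 5 (at least 2.82-fold). ESP1 with 2, 3 and 3 (at least 2.26-fold), AT3G07750 with 1, 1 and 5 (at least 1.98-fold) and CPSF160 with 3, 1 and 1 (at least 1.41-fold) followed. RRP6L1, CPSF30, CPSF73-II and CLPS3 had 1 to 3 reads in all. These counts are too small to rank the genes against each other. AT4G25550 went from 1 to 11 reads over the group (ratio 9.32, interval 1.35 to 401) and AT3G46210 from 1 to 10 (8.47, 1.21 to 368). RRP45a had 12 and 25 reads, CSTF77 6 and 14, RRP6L3 11 and 12, and MTR4 5 and 6, all with overlapping groups. No read at all lay in the windows of RRP4, AT1G60080, HEN2, CPSF100, AT5G60940, ESP4 and PAPS3, and AT5G38890 and CPSF73-I had no window row.

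The poly(A) polymerase windows differed among themselves. PAPS4 had 0, 0 and 2 reads in Col-0 against 9, 5 and 15 in xrn3-8, a ratio of scaled counts of 12.3 (3.11 to 106). PAPS1 had 0, 0 and 2 in Col-0 against 1, 4 and 9 in xrn3-8, a ratio of 5.93 (1.36 to 53.8). PAPS2 had 10, 7 and 2 in Col-0 against 9, 3 and 2 in xrn3-8, a ratio of 0.624 (0.290 to 1.31). The PAPS4 groups did not overlap, while those of PAPS1 and PAPS2 did. Windows with at least 10 reads numbered 18, and in 6 of them (RRP41, RRP6L2, FY, FIPS5, FPA and PAPS4) every xrn3-8 library lay above every Col-0 library. Of all windows with at least 10 reads, 47.3% showed this and 1.28% the reverse. RRP41 aside, the named windows reached 10 reads only through xrn3-8, with 0 to 2 reads over the Col-0 group. Their number is thus partly set by the cut.

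**Figure D3:**
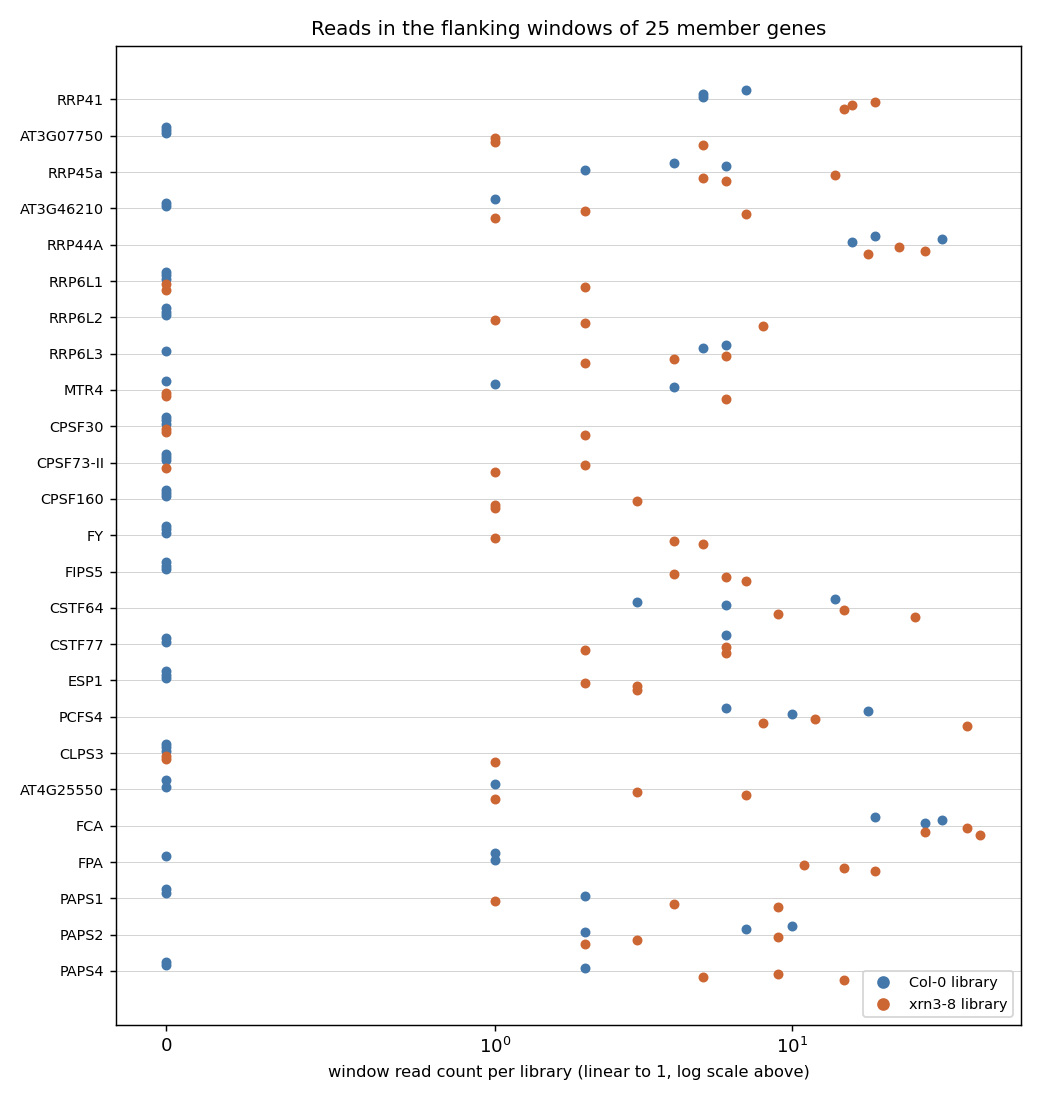
Reads in the flanking window per library for the 25 genes whose window held any read, on an axis that is linear to 1 and logarithmic above; blue points are Col-0 and orange points xrn3-8 libraries. The FPA points lie at 0 or 1 in Col-0 and at 11 to 19 in xrn3-8, whereas those of FCA, RRP44A and PAPS2 overlap.

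Summed over the set, the windows held 93, 110 and 78 reads in Col-0 against 183, 160 and 241 in xrn3-8. This was 0.300%, 0.342% and 0.271% of the reads of the same genes in Col-0 against 0.513%, 0.377% and 0.598% in xrn3-8. The groups did not overlap, with xrn3-8 replicate 2 close to Col-0. The mean share was 1.63-fold higher, against 1.99-fold for all nuclear windows (0.408% ± 0.0137 and 0.812% ± 0.0631). The untested windows went from 0.0829% to 0.224% and the 6 tested ones from 1.04% to 1.37%, the latter with overlapping groups.

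Of the windows of genes adjacent to the set in the reference, 4 were tested and 1 was called, where 49.3% of all windows tested were called higher. The window of PDF2, which lies next to PCFS4, rose from 6, 6 and 0 reads in Col-0 to 26, 48 and 30 in xrn3-8 (log2 fold change 2.84, SE 0.59, adjusted p = 0.00054), while that of PCFS4 itself did not pass. With under 10 reads in each Col-0 library, the PDF2 window came through the filter by xrn3-8 alone. The other 3 tested windows did not pass the threshold, namely AT2G07000 beside HEN2 (0.02, adjusted p = 0.973), AT2G01720 beside CPSF73-II (0.33, adjusted p = 0.604) and AT1G17990 beside PAPS1 (1.22, adjusted p = 0.0624). Untested neighbours were picked for their counts after these were seen. AT5G01390, next to ESP4, had 0, 0 and 0 reads in its window in Col-0 against 8, 17 and 8 in xrn3-8. AT1G03350, next to RRP4, had 2, 1 and 1 in Col-0 against 12, 10 and 10 in xrn3-8. For these last 2 windows there were too few reads for a test, and the windows of ESP4 and RRP4 themselves were empty. The RNA of PDF2, AT5G01390 and AT1G03350 did not pass (log2 fold changes -0.05, 0.13 and -0.04).

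Small RNA over HEN2 and MTR4, the nuclear helicase genes, was higher in xrn3-8. Few small RNA reads lay over most of the set: 7 of the 34 genes could be tested, of which 2 were higher and 0 lower by edgeR (4 had an unadjusted p under 0.05). Over all 9048 genes tested, 6.21% were higher and 1.01% lower. The median log2 fold change was 0.67 over the 7 and -0.0017 over all. A gene with few reads in Col-0 passed the filter mainly where xrn3-8 counts were high, so the 7 genes do not stand for the set. HEN2 and MTR4 themselves had under 10 counts in each Col-0 library and passed the filter through xrn3-8 alone. Without a filter, over 31876 genes, their adjusted p were 0.0021 and 0.00477.

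HEN2 had 6, 7 and 6 small RNA counts in Col-0 against 19, 19 and 32 in xrn3-8. The groups were clearly apart, with a log2 fold change of 1.83 (SE 0.33 and adjusted p = 0.0149). The call was lost without Col-0 replicate 1 (adjusted p = 0.0814), 2 (0.0603) or 3 (0.0727). Without xrn3-8 replicate 3, the library that stood apart, it held at 1.63 (adjusted p = 0.0396). MTR4 had 4, 6 and 3 counts in Col-0 against 20, 12 and 22 in xrn3-8, also without overlap (2.02, SE 0.43, adjusted p = 0.0312). Its call held only without xrn3-8 replicate 2 (0.0424). It lay between 0.0605 and 0.138 in the 5 other fits, at 0.0605 without xrn3-8 replicate 3.

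MTR4 overlaps ARF1, an auxin response factor gene, in the reference. Small RNA over ARF1 was likewise higher, from 18 to 55 counts (log2 fold change 1.57, SE 0.34, adjusted p = 0.0331). With 18 counts over the Col-0 group, ARF1 could not have passed the filter on its Col-0 reads alone. Whether counting used the strand is not stated in the labels or protocols, so reads of the overlapping pair cannot be told apart. HEN2 overlaps AT2G07000, with 5 small RNA counts in Col-0 against 10 in xrn3-8.

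RRP44A and PAPS1 held most of the small RNA over the set, 84.8% ± 4.69 of it in Col-0 against 77.6% ± 2.07 in xrn3-8. RRP44A had 454, 407 and 408 counts in Col-0 against 325, 389 and 498 in xrn3-8, with full overlap (log2 fold change -0.09, SE 0.09, adjusted p = 0.762). PAPS1 had 207, 204 and 148 in Col-0 against 238, 233 and 252 in xrn3-8. The PAPS1 groups did not overlap, but the difference did not pass (0.37, SE 0.13, adjusted p = 0.195). Over the 32 remaining genes the summed small RNA level was 16.9 ± 6.03 CPM in Col-0 against 28.1 ± 3.63 CPM in xrn3-8. These 32 include the called HEN2 and MTR4, so their sum does not show a gain across the set. Over the whole set the unscaled counts summed to 742, 715 and 697 in Col-0 against 748, 791 and 949 in xrn3-8.

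PAPS2 had 5, 12 and 11 small RNA counts in Col-0 against 26, 22 and 16 in xrn3-8, without overlap and short of the threshold (1.18, SE 0.46, adjusted p = 0.239). FIPS5 (0.67, SE 0.52) and PAPS4 (-0.56, SE 0.48) overlapped between the groups. Among genes below the filter, CPSF30 had 2, 3 and 7 counts in Col-0 against 14, 8 and 16 in xrn3-8. CSTF64 had 2, 3 and 1 in Col-0 against 6, 8 and 18 in xrn3-8, and FPA had 4, 2 and 3 in Col-0 against 7, 9 and 16 in xrn3-8. In these 3 genes each xrn3-8 library exceeded each Col-0 library. Others below the filter had fewer counts in xrn3-8, with overlapping groups. Among them FCA had 3, 6 and 12 in Col-0 against 3, 4 and 3 in xrn3-8, and RRP6L2 had 3, 6 and 8 in Col-0 against 1, 4 and 2 in xrn3-8. In all, 25 genes had at least 10 small RNA counts. Of them 7 (MTR4, HEN2, CPSF30, CSTF64, FPA, PAPS1 and PAPS2) had no overlap with xrn3-8 above, and 0 with xrn3-8 below. Over all genes with at least 10 counts these shares were 15.1% and 5.85%. CSTF64 and FPA, with 6 and 9 counts over the Col-0 group, reached 10 counts only through xrn3-8. The number of genes without overlap is thus partly set by the cut.

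**Figure D4:**
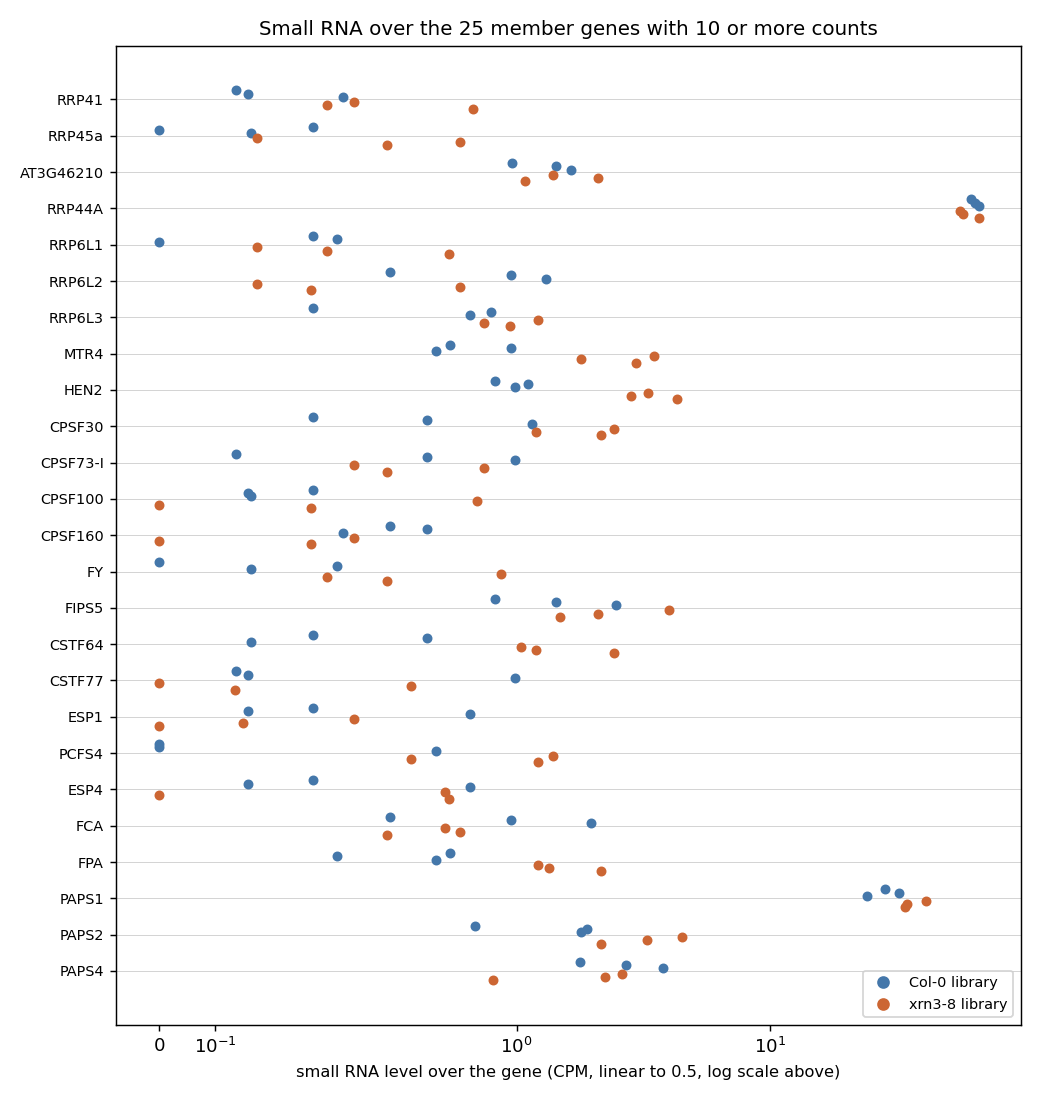
Small RNA level over the gene in CPM per library for the 25 genes with at least 10 counts, on an axis that is linear to 0.5 and logarithmic above; blue points are Col-0 and orange points xrn3-8 libraries. RRP44A and PAPS1 lie far to the right of the other genes, and the xrn3-8 points of HEN2 and MTR4 lie to the right of their Col-0 points.

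RRP44A was the 1 gene tested in all 3 readouts, and it was called in none. HEN2 was called in RNA-seq (0.25) and in small RNA (1.83) and had an empty window. FPA was called in RNA-seq (0.38) and in its window (4.03), and its small RNA was too sparse for a test. RRP41 was called in its window and MTR4 in small RNA, while their RNA-seq levels did not pass. With 1 library left out, the RRP41 window call passed in 0 of 6 fits and the MTR4 small RNA call in 1 of 6. The HEN2 calls passed in 1 of 6 fits (RNA-seq) and 3 of 6 (small RNA), and those of FPA in all 6. As the assays used plants of different age and medium, values of RNA-seq and small RNA were not compared within a test.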

How the data were processed

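RNA-seq and small RNA-seq were measured in 6 libraries each, 3 per genotype. The authors deposited raw whole-number read counts per gene and, for RNA-seq, per window named 500 plus a gene identifier. HISAT2 (RNA-seq), Bowtie (small RNA), HTSeq, DESeq2, bedtools and the TAIR10 build are named per the submitters' processing notes, which give no version or setting here. Any use of strand in counting is not stated. Reads of overlapping genes, which 12 of the 34 have, may therefore be mixed. Tallies of unassigned reads (22.6% to 26.1% of RNA-seq and 74.6% to 77.1% of small RNA reads) were left out. Symbols came from the TAIR10.1 reference table.

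Counts were tested with edgeR 4.0.16 in R 4.3.3 (two-sided quasi-likelihood test, TMM factors, filterByExpr with a minimum count of 10, Benjamini-Hochberg over all features, threshold 0.05). Every adjusted p comes from edgeR unless another tool is named. Windows were scaled by the gene table. Ratios of window to gene were tested as a region-by-genotype term in a fit blocked on library, where the gene had a mean count of 10 or more. The standard error was the log2 fold change divided by the square root of F. CPM are scaled counts per 1e+06. Floors were 3 counts over the group, and intervals are exact and cover counting error only. On simulated counts with 2-fold changes, the tests recovered 92.4% of 197 changed RNA-seq genes and 59.2% of 157 windows. They also recovered 37.9% of 177 ratios and 79.3% of 193 small RNA genes. False calls made up 3.70%, 1.06%, 5.63% and 6.13% of the calls, in the same order. Every feature was simulated with the same dispersion, so the noise was not that of the real libraries. The rates do not give the power for smaller changes such as the RNA-seq rises described here.

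Every gene of the set is accounted for in RNA-seq and in the windows, while in small RNA the genes below the filter are named only in part. Genes past a threshold are given by library, and of the others the highest and lowest of each role group are named. The genes, lists and tests were chosen with earlier results of these data known. Alternatives were other scaling, DESeq2 1.42.0, other filters, a replicate block and leaving out each library. No sequence is printed.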

Additional observations from a re-analysis of the deposited data

How the results depend on the processing

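Calls of FY, FPA, RRP4 and HEN2 in RNA-seq and of the FPA window and ratio were kept under every alternative scaling, filter, block and tool in which they were tested. With total counts, which moved the median of all genes from 0.00 to 0.16, 11 of the 3′ end genes were higher instead of 5, MTR4, ESP1, PCFS4 and PAPS4 passed, and 5458 genes were higher and 2215 lower overall (3289 and 3593 with TMM factors). CLPS3, CPSF100, CSTF77 and RRP6L3 then stood at 0.0086, 0.14, 0.12 and 0.0035. Without a filter 2 of the 3′ end genes and 2 exosome genes were higher, as PAPS1, ESP4, CPSF160 and RRP6L2 (adjusted p = 0.0794) missed the threshold. For windows, DESeq2 took its scaling factors from the windows and not from the gene table, so tool and scaling changed together. It called 1 member window (FPA), with PCFS4 at -0.31 and FCA at -0.58, and 804 windows higher and 301 lower overall (1441 and 47 with edgeR). Windows scaled on themselves gave 1 higher (FPA) and 1 lower (RRP44A at -1.12), with CSTF64 at -0.092, PCFS4 at -0.44 and FCA at -0.70, and 847 higher and 459 lower overall. At a minimum count of 30 neither the FPA and RRP41 windows nor small RNA over HEN2 and MTR4 were tested, leaving 0 calls in both.

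Same-numbered libraries deviated together in RNA-seq with r of 0.0580, 0.187 and 0.152, each best with its own number. In small RNA r was -0.492, 0.0516 and -0.177, but those libraries came from other plants and do not bear on pairing in RNA-seq. The labels state no pairing and the main fits took none. Whether the RNA-seq libraries were weakly paired was not tested. With the replicate block 3 of the 3′ end genes, 2 exosome genes, 1 window and 0 small RNA genes were called higher (adjusted p 0.0544 for PAPS1, 0.0538 for CPSF160, 0.0778 for RRP6L2, 0.0991 for the RRP41 window, and in small RNA 0.101 for HEN2 and 0.171 for MTR4), and PAPS2 stood at -7.4e-05. The summed window share differed by 0.191 percentage points, by 0.329 with tested windows only and by 0.140 to 0.251 with 1 library left out. In the latter fits the number called higher was 0 to 2 for exosome genes, 2 to 5 for 3′ end genes, 1 to 1 for windows, 1 to 2 for ratios and 0 to 2 for small RNA. Log2 fold changes then crossed 0 for CPSF100 (-0.068 to 0.099), PAPS2 (-0.076 to 0.086) and CSTF77 (-0.076 to 0.016), for the windows of RRP44A (-0.33 to 0.14) and PCFS4 (-0.33 to 1.003), and for the ratios of RRP44A (-0.34 to 0.13), PCFS4 (-0.53 to 0.71) and FCA (-0.043 to 0.33). None of these was called. The causes were not tested. Depth limits the windows and small RNA: 19 of the 25 windows with reads could not be tested, and 7 of the 34 genes could be in small RNA.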

Other observations

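RNA-seq counts of the same genes were deposited in a table counted with assembled loci and in a table counted with windows. PAPS1 held 9257 reads over 6 libraries in the former and 9814 in the latter, a ratio of 1.06, and RRP41 a ratio of 1.25. With the latter table, an alternative chosen after seeing the data, the same numbers of exosome genes (3) and 3′ end genes (5) were called higher.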
